A study of Mus musculus with 16 samples.

Results

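MicroRNA levels in hearts of mice exposed to an aggressor for 3 days and then rested for 1 day, called T3R1 in the labels, were set against those of control hearts. The comparison took every sample of both groups, 8 of the 16 samples in the series, and every probe on the array whose name marks a mouse microRNA, 1023 of 2668 probes. All animals were C57BL/6 mice, and their age and sex were not used here. T3R1 mice sat in a mesh box inside the cage of an aggressor for 6 hours a day, and between 3 and 5 times they were placed in the open cage and attacked for up to 2 minutes. Control mice were boxed likewise, in a large cage without an aggressor. Their code, C2R1, is left unexplained by the labels, and the protocol text speaks of 5 or 10 consecutive days, so the 3 days of exposure rest on the sample label and the series design. RNA came from the heart of an individual mouse, was labelled with Hy3 or Hy5, a pair of fluorescent dyes, and was hybridised so that each array carried 2 samples of the same group, 1 in each dye. The 4 T3R1 samples therefore lie on 2 arrays and the 4 control samples on 2 others. The comparison asks whether microRNA levels in the heart differed after 3 days of this stress.

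MicroRNAs are short RNAs that guide Argonaute proteins to messenger RNAs, mostly through pairing of the seed, the bases just after the 5′ end, and lower the output of those messengers. Most precursors yield an abundant guide strand and a rarer opposite strand, marked here with a star. Heart muscle is known for microRNAs encoded in myosin genes and for miR-1 and miR-133, fibroblasts for miR-21, miR-199 and miR-214, endothelium for miR-126, and red and white blood cells for sets of their own.

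The microRNAs on which the comparison turned group by shared seed, and probes for close relatives may also bind each other's RNA. The mature sequences below come from RefSeq on mouse build GRCm38.p6 and are printed 5′ to 3′ with the seed, bases 2 to 8, in capitals. They are shown because members with 1 seed differ outside it. Of 24 microRNAs looked up for this purpose, 21 were matched. The myosin-encoded set comes first.
miR-208a-3p: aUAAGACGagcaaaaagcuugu
miR-208b: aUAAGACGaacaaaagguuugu
miR-499: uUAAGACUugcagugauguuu
The miR-30 members matched were these 3, and miR-30a and miR-30e differ at 1 position.
miR-30a: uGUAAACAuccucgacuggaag
miR-30c: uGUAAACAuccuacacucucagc
miR-30e: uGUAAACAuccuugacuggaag
The 4 members of the miR-15/16 family shown share the seed AGCAGCA, and miR-16 and miR-195 differ at 2 positions.
miR-15a: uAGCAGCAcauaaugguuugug
miR-15b: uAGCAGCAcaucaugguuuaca
miR-16: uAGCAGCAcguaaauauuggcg
miR-195: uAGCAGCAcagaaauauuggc
Within the let-7 family, let-7a and let-7i differ at 4 positions.
let-7a: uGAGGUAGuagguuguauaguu
let-7i: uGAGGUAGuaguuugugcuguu
The others named often below have seeds of their own.
miR-21: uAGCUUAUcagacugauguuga
miR-214: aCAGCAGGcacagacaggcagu
miR-126-3p: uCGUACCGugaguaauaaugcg
miR-146a: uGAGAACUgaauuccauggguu

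No microRNA passed the test. With limma over the mouse probes and Benjamini-Hochberg adjustment, 0 of 1022 tested probes (0%) were called between T3R1 and control at an adjusted p under 0.05, and the smallest adjusted p was 0.301. In a fit of the 8 samples alone with the replicate number as a block, 1 was called, miR-208a-3p. At an unadjusted p under 0.05 stood 73 probes (7.14%), 30 with a higher and 43 with a lower mean in T3R1 (2.94% and 4.21%), beside 51.1 expected from 1022 tests with no difference. Among the 196 probes above background in 4 or more samples, the shares were 8.16% higher and 12.2% lower. The remaining mouse probe, for the smooth muscle microRNA miR-143, had no usable value in any control sample and was not tested; in T3R1 it read 11.13, 11.04, 10.50 and 10.03 in replicates 1 to 4.

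All levels below are normalised log2 intensities, and a difference is the fitted T3R1 minus control value on that scale, with its standard error from limma. It equals the difference of the group means except where values are missing, as for miR-208a-3p, when it can depart from it. On that scale 1 unit is a 2-fold difference in intensity after an offset of 50 was added, not a 2-fold difference in RNA. The 95% interval of the difference lay within a 1.5-fold change in either direction for 980 of 1022 probes (95.9%) and within a 2-fold change for 1018. Of the 196 tested probes brighter than background in 4 or more samples, 169 (86.2%) lay within 1.5-fold and 193 within 2-fold. With the correlation between samples of an array taken from these brighter probes, 0.673 in place of 0.250, 151 of the 196 (77.0%) lay within 1.5-fold. These intervals hold for the offset of 50, which draws differences of dim probes towards 0, and were not computed with another offset. They also hold for the scaling used: under median scaling the median of the probes above background moved from -0.011 to 0.26. Background here is the 95th percentile, in the same sample, of 145 probes for human virus microRNAs, and many probes under it hold no measurable signal.

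**Figure D1:**
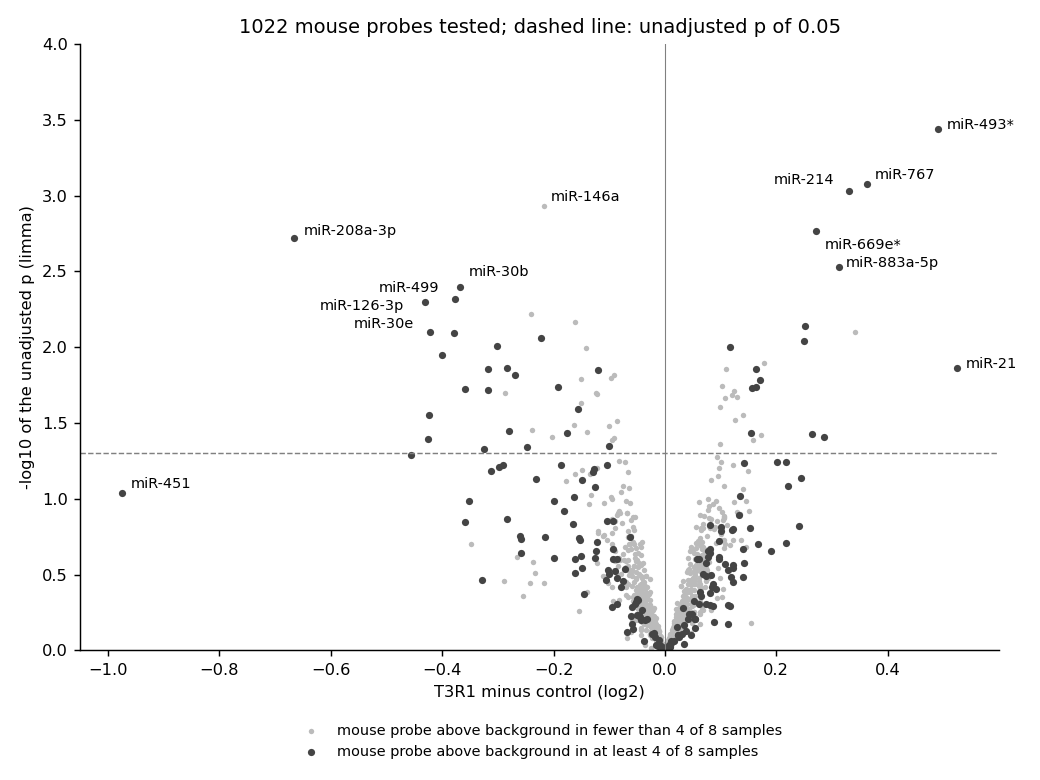
Difference between T3R1 and control (horizontal axis, log2) against the negative log10 of the unadjusted limma p (vertical axis) for 1022 mouse probes, dark where the probe stood above background in at least 4 of 8 samples. None passed the adjusted threshold, miR-493* had the lowest p, and miR-451, with the most negative difference, had usable values in only 4 samples.

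Between 178 and 213 mouse probes stood above background in control samples (192.5 ± 15.4, SD, n = 4) and between 165 and 230 in T3R1 samples (189.5 ± 28.1, SD, n = 4), and the groups overlapped. Over the 99th percentile of the virus probes stood 69 to 88 mouse probes in control and 56 to 71 in T3R1 (78.5 ± 9.40 and 63.5 ± 8.66, SD, n = 4), with samples of an array close to each other, and T3R1 replicates 3 and 4, at 56 each, lay below every control. Across 193 bright probes, samples of the same array correlated at 0.977 to 0.986, samples of the same group on different arrays at 0.948 to 0.983, and samples of different groups at 0.939 to 0.986, so a T3R1 sample was about as similar to a control sample as to a T3R1 sample on the other array. The heart muscle markers were present: 6 of 7 listed had a tested probe, and all 6 exceeded background in 4 or more of the 8. The array probe that names miR-1 without a star carries its rat name, which is outside the mouse set, and read 7.37 to 7.74 in the 8 samples. Of the markers of neurons, liver and epithelium, 0 of 16 tested probes were above background in at least 4 samples.

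Directions depended on how the arrays were brought to a common scale, and this applies to every group below. Of the 25 leading microRNAs, 12 had a higher and 13 a lower T3R1 mean. Each kept its sign under quantile normalization, under the scanner's processed signals, with a background offset of 0 and in the authors' deposited table. Under median scaling between arrays, 12 of the 13 lower ones turned positive, and only miR-146a did not. With no step between arrays the median of all mouse probes itself moved to -0.62, so values there are read relative to that median. On that footing all 12 higher ones stayed positive, from 0.28 for miR-574-3p to 0.68 for miR-767. Their values relative to the median were the same under median scaling, so these settings are not separate support. Most of the 13 lower ones were also positive on that footing, with miR-30b and miR-30c at 0.18. Only miR-208a-3p (-0.012) and miR-146a (-0.12) stayed negative. Probes above background had a median of -0.39 with no step, above the -0.62 of all mouse probes.

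**Figure D2:**
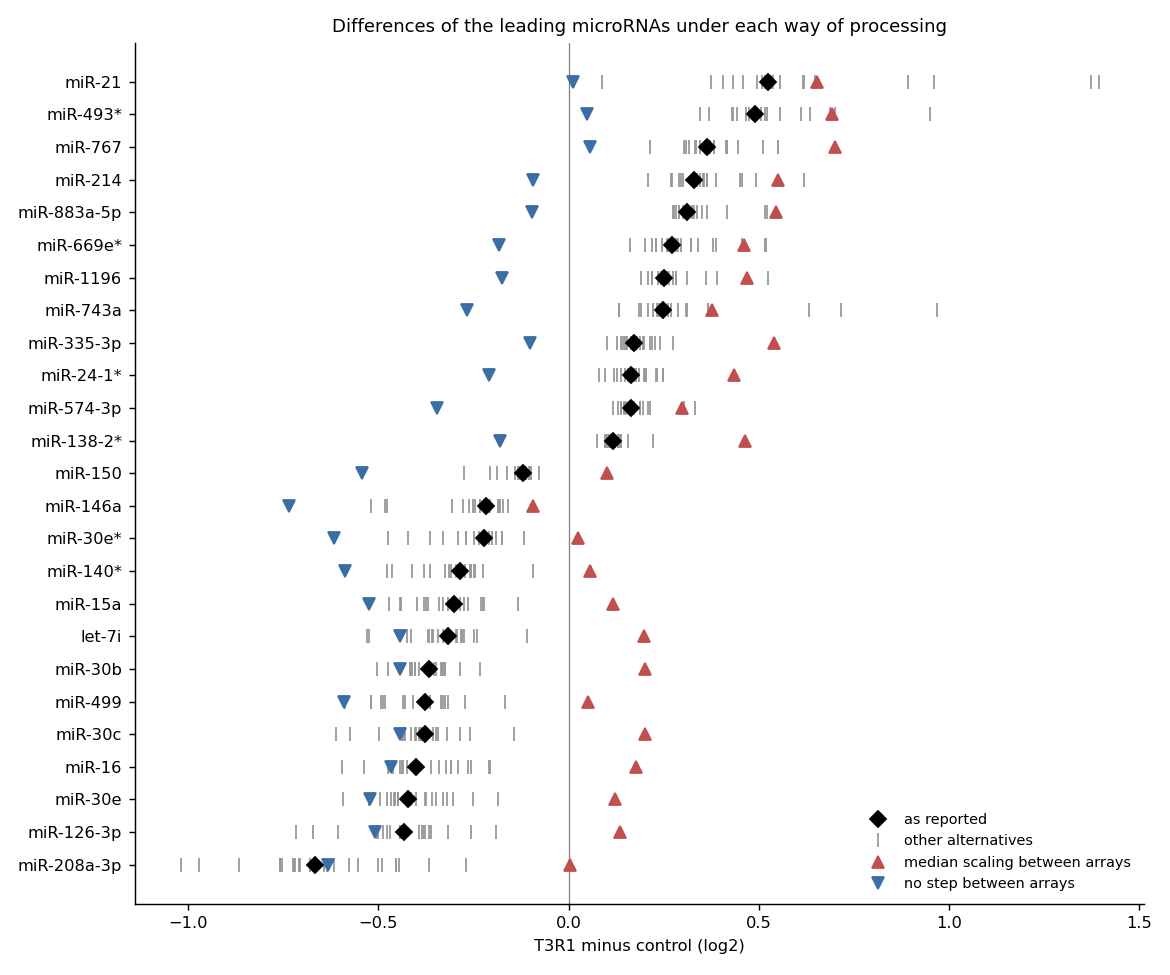
Difference between T3R1 and control (horizontal axis, log2) of the 25 leading microRNAs as reported (diamonds) and under each alternative (ticks, and triangles for median scaling and for no step between arrays). Median scaling lies to the right of the reported value and no step between arrays to the left for most microRNAs, where the median of all mouse probes stands at -0.62.

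Among microRNAs of heart muscle, the myosin-encoded pair miR-208a-3p and miR-499 had the lowest p. They act in the control of myosin isoforms and of the stress response of cardiomyocytes. miR-208a-3p lies within Myh6, the alpha myosin heavy chain gene, at chr14:54949072-54949093 on the minus strand, and miR-499 within Myh7b at chr2:155622893-155622913 on the plus strand. As in all bulk tissue, fewer cells of a type and less RNA per cell cannot be told apart here.

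In control hearts, miR-208a-3p read 13.10, 12.50 and 11.95 in replicates 1, 3 and 4, with no usable value in replicate 2. In T3R1 hearts it read 12.34, 11.81, 11.85 and 11.08. The T3R1 mean was below every measured control, but the groups overlapped, since T3R1 replicate 1 stood above control replicate 4. The fitted difference was -0.67 ± 0.17 (SE, adjusted p = 0.327), beside measured means of 11.77 in T3R1 and 12.52 in control. The 8 samples fitted alone, with the replicate number as a block in place of dye, gave -0.76 (adjusted p = 0.0270). With no value in control replicate 2, only 3 same-numbered pairs were complete there. miR-208a-3p was also called without the array of T3R1 replicates 1 and 2 (-0.97, adjusted p = 0.0211). In the 8 fits that each left out 1 sample it ranged from -0.76 to -0.45 and was not called. Under median scaling it stood at 0.0052.

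miR-499 read 8.40, 8.49, 8.26 and 8.42 in control and 8.33, 8.11, 7.78 and 7.82 in T3R1. Of the 4 T3R1 samples, 3 lay under every control, and the other lay among them. The difference was -0.38 ± 0.11 (adjusted p = 0.467). Leaving out T3R1 replicate 1, the sample that overlapped, made it -0.49, and it passed the test (adjusted p = 0.0343). Over the 8 fits that each left out 1 sample, it ranged from -0.49 to -0.32, with an adjusted p up to 0.734. Its opposite strand, miR-499*, was lower in all 4 T3R1 samples than in all 4 controls, by a small difference of -0.15 ± 0.08.

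miR-208b, which shares the seed of miR-208a-3p and lies within Myh7, the beta myosin gene, at chr14:54975710-54975731, differed by -0.02 ± 0.06. The muscle repressors of growth genes miR-133a and miR-133b differed by -0.20 ± 0.17 and -0.30 ± 0.15, and miR-206, mainly a skeletal muscle microRNA, by -0.09 ± 0.08. So all 6 tested members of the muscle list were negative (median -0.25, beside -0.0014 over all mouse probes), 2 of them at an unadjusted p under 0.05 (4.21% of all mouse probes were lower at that p, and 12.2% of those above background) and 0 called; under median scaling all 6 were positive (median 0.11). The list's median between single arrays ranged from -0.05, for T3R1 replicates 1 and 2 against control replicates 3 and 4, to -0.62, for T3R1 replicates 3 and 4 against control replicates 1 and 2.

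**Figure D3:**
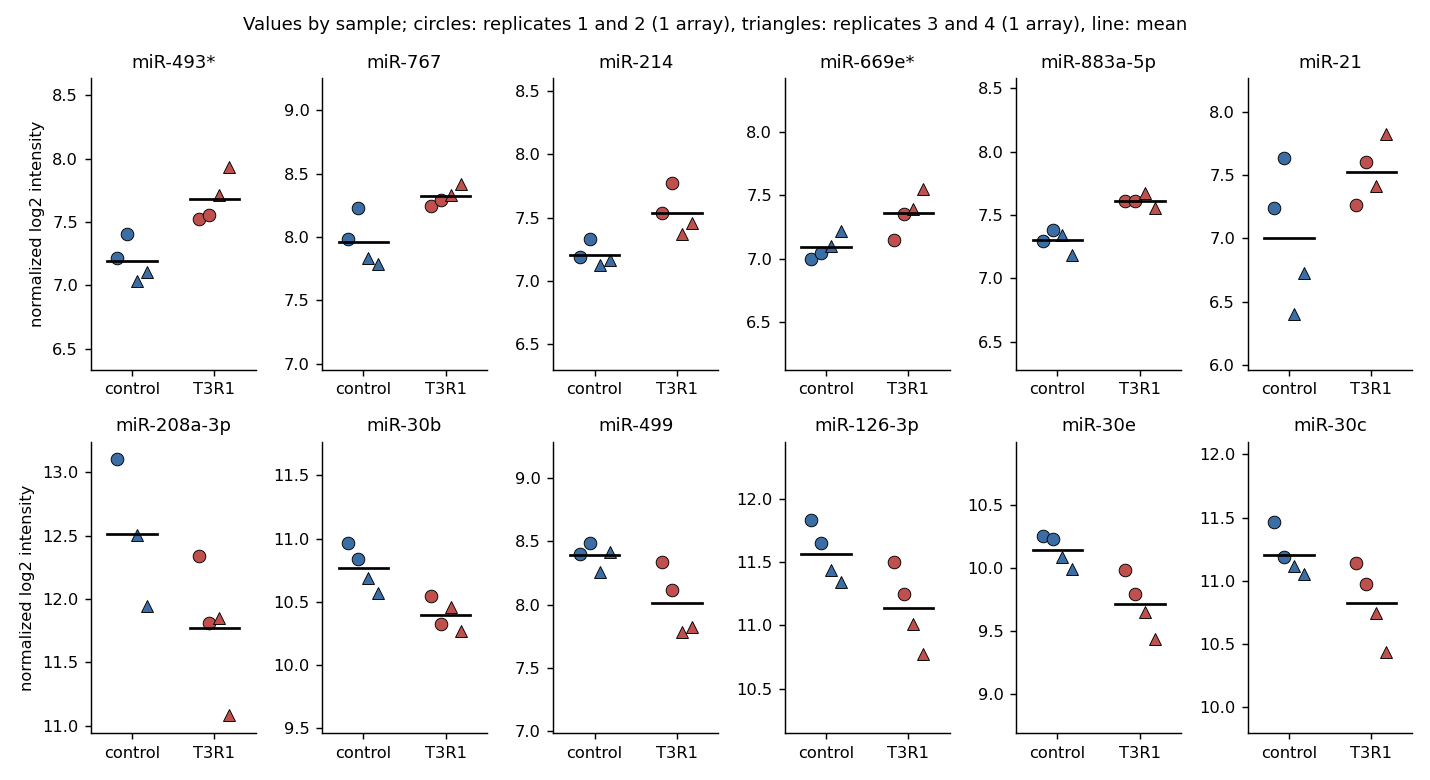
Normalised log2 intensity (vertical axis, each panel spanning the same range) of 12 leading microRNAs in each control and T3R1 sample, with circles for replicates 1 and 2, which share an array, triangles for replicates 3 and 4, and a line at the mean. The groups are apart for miR-493*, miR-767, miR-214, miR-883a-5p, miR-30b and miR-30e and overlap for the other 6.

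Of the fibroblast and remodelling microRNAs, miR-214 and miR-21 stood highest in T3R1 relative to control. miR-214 is made from an antisense transcript of the dynamin gene Dnm3, Dnm3os, and lies at chr1:162223438-162223459. It read 7.19, 7.33, 7.12 and 7.16 in control and 7.53, 7.77, 7.37 and 7.45 in T3R1, so that every T3R1 sample was above every control. The difference was 0.33 ± 0.08 (adjusted p = 0.301). Its opposite strand, miR-214*, was also higher in all 4 T3R1 samples, by 0.18 ± 0.06, but was above background in 0 of 8. Its cluster mate miR-199a-5p, from the same transcript, read 7.63, 7.95, 7.61 and 7.73 in control and 8.02, 8.30, 7.65 and 7.83 in T3R1. These ranges overlapped, with a difference of 0.22 ± 0.12 (adjusted p = 0.806).

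miR-21, which is abundant in activated fibroblasts, lies within Vmp1 at chr11:86584120-86584141. It read 7.24, 7.64, 6.40 and 6.73 in control and 7.27, 7.61, 7.41 and 7.83 in T3R1. Control replicates 3 and 4, which share an array, lay below every T3R1 sample, replicate 1 lay just below the lowest, and replicate 2 lay within the T3R1 range. The difference was 0.52 ± 0.19 (adjusted p = 0.467). It was 0.96 and called without the array of control replicates 1 and 2 (adjusted p = 0.000368), and 0.088 without that of control replicates 3 and 4 (adjusted p = 0.704). Its star strand gave 0.34 ± 0.11 (adjusted p = 0.467), with overlapping groups. Over the whole fibrosis and remodelling list, 5 of 13 tested members were positive and 8 negative (median -0.02; under median scaling 11 and 2, with 2 called higher), and miR-214 was the one of the 13 whose groups did not overlap, beside 3.63% of all mouse probes. The p53-induced miR-34a differed by -0.02 ± 0.08.

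The miR-29 family, which represses collagen genes, was negative in all 3 members, with differences of -0.26 ± 0.20 for miR-29a, -0.36 ± 0.23 for miR-29b and -0.21 ± 0.15 for miR-29c (0 of 3 at an unadjusted p under 0.05; all 3 positive under median scaling). miR-29b read 11.31, 11.36, 10.39 and 10.36 in control and 10.78, 10.80, 10.31 and 10.11 in T3R1. In all 3 members each T3R1 sample lay below the control of the same number, and same-numbered arrays gave list medians of -0.32 and -0.20. Within a group, replicates 3 and 4 differed from replicates 1 and 2 by a list median of -0.73 in control and -0.58 in T3R1, and across differently numbered arrays the list's median was 0.41 and -0.92.

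The miR-30 family, whose members restrain autophagy and connective tissue growth factor in heart muscle, was negative in all 5 members (median -0.37). Of these, 3 had an unadjusted p under 0.05 and 0 were called. Lower at that p were 43 of all 1022 probes (4.21%), 12.2% of those above background and 12 of the 49 brightest. miR-30b read 10.96, 10.84, 10.69 and 10.57 in control and 10.55, 10.33, 10.46 and 10.27 in T3R1. miR-30e, within Nfyc at chr4:120772660-120772681, read 10.25, 10.23, 10.09 and 9.99 in control and 9.99, 9.79, 9.65 and 9.44 in T3R1. For both, every T3R1 sample lay below every control, by a narrow margin, with differences of -0.37 ± 0.11 and -0.42 ± 0.14 (adjusted p = 0.467 for each).

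miR-30c, 1 of whose loci lies beside miR-30e in Nfyc at chr4:120769584-120769606, gave -0.38 ± 0.12 with overlapping groups (11.46, 11.19, 11.12 and 11.05 against 11.14, 10.97, 10.75 and 10.44). The other pair of the family differed little: miR-30a, which matches miR-30e at all positions but 1, gave -0.04 ± 0.07, and miR-30d gave -0.05 ± 0.07. The star strand miR-30e* went with its guide (-0.22 ± 0.07), while miR-30b* did not (0.13 ± 0.08, above background in 0 of 8). Under median scaling all 5 guides were positive (median 0.20). The median was -0.14 without the array of T3R1 replicates 3 and 4, with all 5 negative, and -0.50 without that of control replicates 3 and 4, with 3 negative and 2 positive.

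In the miR-15/16 family, which restrains the cell cycle, 5 of 6 members were negative (median -0.21) and 3 had an unadjusted p under 0.05. Lower at that p were 4.21% of all mouse probes and 12.2% of those above background. Under median scaling 5 of the 6 members were positive. miR-15a and miR-16 come from a shared locus in the non-coding gene Dleu2 on chromosome 14, miR-15a at chr14:61632075-61632096, and miR-15b and a further copy of miR-16 lie together within Smc4 on chromosome 3, miR-15b at chr3:69009775-69009796. miR-15a read 8.47, 8.57, 8.65 and 8.67 in control and 8.49, 8.43, 8.18 and 8.06 in T3R1, a difference of -0.30 ± 0.10. miR-16 read 9.52, 10.01, 9.58 and 9.70 in control and 9.46, 9.53, 9.12 and 9.10 in T3R1, a difference of -0.40 ± 0.14. Both had adjusted p = 0.467 and overlapped in 1 T3R1 sample or more.

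miR-15b read 7.83, 7.96, 8.11 and 8.13 in control and 7.72, 7.81, 7.46 and 7.32 in T3R1, with every T3R1 sample lower, although its standard error was larger (-0.43 ± 0.19, adjusted p = 0.608). The family's list included miR-195, which nearly matches miR-16 and gave -0.12 ± 0.09, and miR-497 and miR-322, both below background in all 8 samples. miR-16 is also abundant in red blood cells, and all 4 members of the erythroid list, which holds it, were negative (median -0.36, lowest miR-451 at -0.97 ± 0.52, and 3 of 4 positive under median scaling). miR-451 was measured in replicates 3 and 4 of each group only, at 12.42 and 12.46 in control and 11.74 and 11.19 in T3R1, and miR-144, its cluster mate, gave -0.33 ± 0.33. How much blood the hearts held was not tested.

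The let-7 family, differentiation-linked microRNAs with 9 listed members, was mixed, with 3 members positive and 6 negative (median -0.08). All 9 were positive under median scaling. At an unadjusted p under 0.05 stood 1 member (4.21% of all mouse probes were lower at that p, and 12.2% of those above background). That member, let-7i, read 9.03, 9.13, 9.06 and 8.95 in control and 8.95, 8.92, 8.59 and 8.45 in T3R1. Its highest T3R1 sample was just under its lowest control, and the difference was -0.32 ± 0.11 (adjusted p = 0.467). let-7g gave -0.35 ± 0.20 and let-7b -0.26 ± 0.18, both with overlapping groups. At the other end, let-7a gave 0.10 ± 0.07 and miR-98, a family member from the X chromosome, 0.07 ± 0.07.

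The endothelial microRNA miR-126-3p, which supports VEGF signalling and lies within Egfl7 at chr2:26591402-26591423, read 11.83, 11.65, 11.44 and 11.34 in control and 11.50, 11.25, 11.01 and 10.77 in T3R1. Each T3R1 sample was below the control of the same number, and the groups overlapped across arrays (-0.43 ± 0.13, adjusted p = 0.467; 0.13 under median scaling). The other strand of the same precursor, miR-126-5p, gave -0.20 ± 0.11. miR-221 and miR-222, the further endothelial members, were below background in most samples, at -0.03 ± 0.05 and 0.04 ± 0.07. The smooth muscle microRNA miR-145 gave -0.05 ± 0.08.

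Among microRNAs of leukocytes and inflammation, 8 of the 9 listed had negative differences (median -0.12), and 4 of 9 under median scaling. An unadjusted p under 0.05 was found for 3 (4.21% of all mouse probes were lower at that p, and 12.2% of those above background). miR-146a, a brake on Toll-like receptor signalling, read 6.65, 6.66, 6.69 and 6.74 in control and 6.45, 6.57, 6.34 and 6.51 in T3R1. Every T3R1 sample was lower (-0.22 ± 0.05, adjusted p = 0.301), yet it was above background in 1 of the 8 samples, and its star strand was above background in 0 of 8. miR-150, a lymphocyte microRNA, was also lower in all 4 T3R1 samples (6.97, 6.96, 7.08 and 7.02 against 7.14, 7.15, 7.13 and 7.08), by -0.12 ± 0.04. The third, miR-142-5p, found throughout blood cells, gave -0.32 ± 0.15, and the myeloid miR-223 gave -0.02 ± 0.15.

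Leading probes also included microRNAs with no settled role in the heart, among them miR-493* and miR-767, which had the lowest p of all. Described above, miR-214, miR-146a and miR-208a-3p ranked 3, 4 and 6 by p. miR-493*, from the imprinted Dlk1-Dio3 region, read 7.22, 7.40, 7.03 and 7.11 in control and 7.52, 7.55, 7.71 and 7.93 in T3R1. Every T3R1 sample was higher, the difference was 0.49 ± 0.10 (adjusted p = 0.301), and its guide strand, miR-493, was below background in all 8 samples (-0.05 ± 0.04). miR-767 read 7.98, 8.23, 7.83 and 7.79 in control and 8.24, 8.29, 8.33 and 8.42 in T3R1, again without overlap (0.36 ± 0.09, adjusted p = 0.301). Leaving out control replicate 2, the highest control, gave an adjusted p of 0.0126. Over the 8 fits that each left out 1 sample, its difference ranged from 0.30 to 0.45, with an adjusted p up to 0.726.

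miR-883a-5p read 7.29, 7.38, 7.34 and 7.18 in control and 7.61, 7.61, 7.68 and 7.56 in T3R1, a tight pair of groups 0.31 ± 0.09 apart (adjusted p = 0.429). miR-1196 was likewise higher in all 4 T3R1 samples (0.25 ± 0.08), and miR-669e*, from the rodent Sfmbt2 cluster, overlapped in 1 sample (0.27 ± 0.07). The remaining leading probes were miR-743a 0.25 ± 0.08, miR-335-3p 0.17 ± 0.06, miR-24-1* 0.16 ± 0.06, miR-574-3p 0.16 ± 0.06 and miR-138-2* 0.12 ± 0.04 on the higher side, and miR-140* -0.28 ± 0.10 on the lower. The opposite strand of miR-335-3p went the other way (miR-335-5p, -0.25 ± 0.11).

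Groups without any overlap were few. Of 1020 mouse probes with enough values, 37 (3.63%) had them. All T3R1 samples lay above all controls in 17 (1.67%) and below in 20 (1.96%). If samples were independent and the groups did not differ, 4 against 4 values would separate fully with a probability of 0.0286, near the share seen. Samples that share an array are not independent. Among the 194 such probes above background the counts were 8 and 8 (4.12% each). The 8 higher were miR-493*, miR-767, miR-214, miR-883a-5p, miR-1196, miR-574-3p, miR-433* and miR-2137, and the 8 lower were miR-30b, miR-30e, let-7i, miR-150, miR-101a, miR-26b, miR-15b and miR-499*. miR-26b, a growth-restraining microRNA within Ctdsp1, gave -0.19 ± 0.07, and miR-101a gave -0.27 ± 0.10. Of these, miR-433*, miR-2137 and miR-101a were named after their values were seen.

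The other lists held no probe called. The clusters of miR-23, miR-27 and miR-24, which act in vessels and in muscle growth, had 1 positive and 4 negative members (median -0.07), from miR-27a at 0.13 ± 0.08 to miR-27b at -0.10 ± 0.05. The miR-17-92 cluster and its paralogues, drivers of proliferation, had 3 positive and 9 negative of 12 (median -0.07), with miR-106b lowest at -0.31 ± 0.16. The miR-125, miR-99 and miR-100 families were negative in 5 of 5 (median -0.16; all 5 positive under median scaling), and the miR-26 and miR-181 families in 4 of 6 (median -0.05).

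In the list of microRNAs tied to cardiac metabolism, 2 probes were positive and 6 negative (median -0.08), and 7 of 8 were positive under median scaling. As reported, 3 were lower at an unadjusted p under 0.05, beside 4.21% of all mouse probes and 12.2% of those above background. Those 3 were miR-22 and both probes that bind miR-378, a microRNA from the gene of the mitochondrial regulator PGC-1beta. miR-22 read 13.40, 12.30, 12.82 and 12.39 in control and 12.64, 12.40, 12.46 and 11.74 in T3R1, with overlap (-0.42 ± 0.17, adjusted p = 0.547). The 2 miR-378 probes gave -0.28 ± 0.12 and -0.36 ± 0.13. miR-103, miR-107 and miR-210, the hypoxia microRNA, gave -0.06, -0.03 and -0.10, the first above background in 3 samples and the others in 0.

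Negative differences gathered among the brightest probes. Of the 196 tested probes above background, split into 4 bins of 49 by mean level, the brightest bin, from 8.19 to 12.5, held 12 positive and 37 negative differences (median -0.16), and the other 3 held 30 and 19, 24 and 25, and 28 and 21 (medians 0.04, -0.01 and 0.03). Arrays within a group differed in the same way: in the brightest bin, replicates 3 and 4 stood below replicates 1 and 2 with a median of -0.24 in control and -0.32 in T3R1. The bin's median was 0.06 for T3R1 replicates 1 and 2 against control replicates 3 and 4, and -0.50 for T3R1 replicates 3 and 4 against control replicates 1 and 2. Under median scaling 48 of its 49 probes were positive, and so were 47, 48 and 48 of 49 in the other 3 bins. From the dimmest bin to the brightest, the medians as reported were 0.04, -0.01, 0.03 and -0.16. Under median scaling they were 0.20, 0.25, 0.33 and 0.35, so all bins rose and the brightest moved most. The share of the array difference in the lower values of bright muscle, miR-30 and blood microRNAs in T3R1 was not tested, and with 2 arrays a group the groups and their arrays cannot be told apart beyond this spread.

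**Figure D4:**
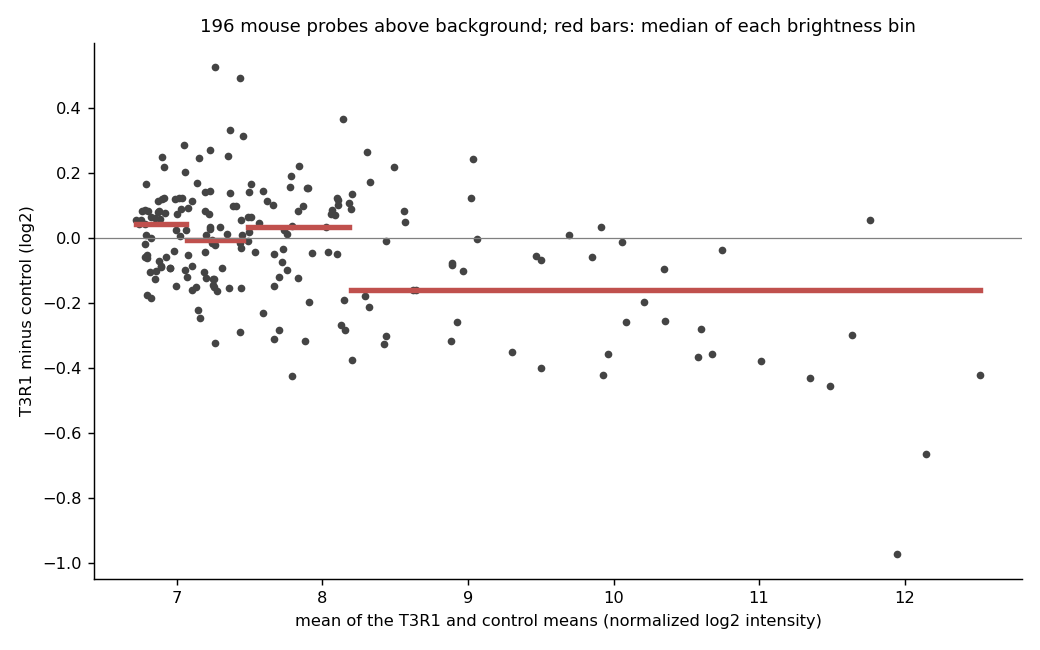
Difference between T3R1 and control (vertical axis, log2) against the mean normalised log2 intensity (horizontal axis) of 196 mouse probes above background, with red bars at the median of each of 4 brightness bins. The medians of the lower 3 bins lie near 0 and that of the brightest at -0.16.

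The shorter exposures, 1 day (T1R1) and 2 days (T2R1) with the same rest, used the same controls, and in each of them 9 probes (0.881%) were called against control. Both sets include miR-720, which had a usable value in only 1 control sample. T3R1 shared the slide run of the controls while T1R1 and T2R1 lay in another, so the run and the length of exposure cannot be told apart in these contrasts. The control spots named Hy3 had array medians of 15289 to 15755 in control and T3R1 and 22582 to 27785 in T1R1 and T2R1. Of the microRNAs called after 1 or 2 days, none was called in T3R1. miR-30a stood at 7.75 ± 0.11 in control, 8.43 ± 0.12 in T1R1, 8.47 ± 0.06 in T2R1 and 7.71 ± 0.09 in T3R1 (SD, n = 4 each), and T3R1 differed from T1R1 by -0.72 ± 0.07 (adjusted p = 0.000139) and from T2R1 by -0.76 ± 0.07 (adjusted p = 6.53e-05). let-7a stood at 7.61 ± 0.04, 8.12 ± 0.05, 8.38 ± 0.07 and 7.71 ± 0.15 in the same order. In all, 28 mouse probes (2.74%) were called between T3R1 and T1R1 and 11 (1.08%) between T3R1 and T2R1. miR-883a-5p and miR-24-1*, called after 1 and 2 days, were also higher in T3R1 without passing the test (0.31 ± 0.09 and 0.16 ± 0.06). miR-150, called after 2 days (-0.25, adjusted p = 0.00696), was also lower in T3R1 without passing it (-0.12 ± 0.04).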

How the data were processed

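The deposited data are 2-colour scanner files, 1 per array, whose spot intensity values the authors obtained, per the file headers, with Feature Extraction 9.5.3.1 from Agilent on 8 arrays, and a deposited table of the authors' log2 values whose making was not given in the sources used here (every column has a median of 3.76, and each follows its own channel at r from 0.965 to 0.996 against 0.848 to 0.953 for the other channel of its array). Each channel was 1 sample, and 0 columns were left unmapped. Mean and background intensities were corrected with normexp (offset 50), normalised by loess within arrays and Aquantile between arrays (limma 3.58.1, R 4.3.3); spots marked as outliers were dropped, control spots were given no weight, and the 4 spots of a probe were averaged. Of the values of mouse probes in the 8 samples, 12 over 4 probes were missing and were left out of the fit, not imputed. These probes, for miR-143, miR-451, miR-720 and miR-208a-3p, were among the brightest. Control replicates 1 to 4 lacked 3, 4, 1 and 2 values, and T3R1 replicates 1 to 4 lacked 1, 1, 0 and 0. All 16 samples were fitted with group and dye terms and array as a random block (correlation 0.250), and p-values were adjusted by Benjamini-Hochberg over the mouse probes tested. Tests were run on simulated data first. Nothing beyond the labels says how the replicates were drawn, so p-values cover the spread between these samples, and the number of arrays limits precision.

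Same-numbered samples of T3R1 and control deviated together (correlations 0.382, 0.381, 0.596 and 0.643 over 193 probes), which met the rule for pairing. The reported fit has no such block, and the fit with it, of the 8 samples alone, is an alternative. Same-numbered samples share a dye, and with the dye removed the correlations were 0.053, 0.250, 0.371 and 0.415. Named were called probes or else the 10 of lowest p, the 12 of lowest p in each direction among probes above background, members of 18 lists, their opposite strands and the calls of the shorter exposures. The members and lists were chosen with earlier results of these data known; some microRNAs, such as miR-16 and miR-22, are in 2 lists. Alternatives covered background correction, scaling, source table, filters, blocks, dye and samples left out.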

Additional observations from a re-analysis of the deposited data

Results flagged for a closer look

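For miR-140*, control replicate 1 at 7.72 stood apart from the other 3 controls, the nearest of which was at 7.88; it was 1 of 49 groups of 4 examined this way, and chance marks about 1 in 20.

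Of the microRNAs called after 1 or 2 days of exposure, 7 differed between T3R1 and both shorter exposures. These calls depend on the processing: of the 9 called after 1 day, 7 differed between T3R1 and T1R1 as reported, 0 with no step between arrays, 2 with another background offset, in the deposited table or with arrays averaged, and 3 with the array correlation of bright probes. The T3R1 minus T1R1 and T3R1 minus T2R1 differences were -0.41 and -0.67 for let-7a, -0.72 and -0.76 for miR-30a, -0.42 and -0.41 for miR-133a*, -0.30 and -0.23 for miR-149, and -0.86 and -1.05 for miR-720, which had a usable value in only 1 control sample. They were 0.41 and 0.31 for miR-467a*, and 0.46 and 0.40 for miR-582-3p. T3R1 lay in another slide run than the shorter exposures, so run and exposure cannot be told apart.

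Among 1197 probes that do not name a mouse microRNA, 1 was called between T3R1 and control: the probe for human miR-4301 differed by 0.32 ± 0.05 (adjusted p = 0.0216), with controls at 7.88 to 7.95 and T3R1 samples at 8.20 to 8.26, above background in all 8 samples. What this probe binds in mouse RNA was not tested.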

How the results depend on the processing

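The count of called mouse probes between T3R1 and control, 0, held under the alternatives for background offset, processed signals, quantile normalization and the deposited table. It also held under those for samples fitted, filters, outlier spots, array block, dye and moderation. Over these, the smallest adjusted p (limma) ran from 0.103 to 0.997. It became 32 (all higher) under median scaling and 707 (all lower) with no step between arrays. It was 1 (miR-208a-3p) with the replicate number as a block in the 8 samples fitted alone, which changed no other call. Leaving out 1 sample gave 0 to 1, with miR-767 called without control replicate 2 and miR-499 without T3R1 replicate 1. Leaving out an array gave 19 calls without control replicates 1 and 2, 9 without control 3 and 4, 12 without T3R1 1 and 2 and 1 without T3R1 3 and 4, where the lone array is assumed to vary like the others. Median scaling turned miR-208a-3p to 0.0052, miR-30b and miR-30c to 0.20, miR-499 to 0.052, miR-126-3p to 0.13, miR-30e to 0.12, miR-30e* to 0.026, miR-15a to 0.12, miR-16 to 0.18, miR-140* to 0.056, let-7i to 0.20 and miR-150 to 0.10. With no step, miR-214 became -0.093, miR-669e* -0.18, miR-883a-5p -0.10, miR-1196 -0.17, miR-743a -0.27, miR-138-2* -0.18, miR-574-3p -0.35, miR-335-3p -0.10 and miR-24-1* -0.21, but all probes moved together there (median -0.62), and relative to that median each of these was positive, from 0.28 to 0.53. Relative to that median most of the lower leading microRNAs were positive too, and probes above background had a median of -0.39 there. The cause of the turns under median scaling was not tested. Of the 9 probes called after 1 day, 7 differed between T3R1 and T1R1, but 0 with no step, 2 with another background offset, in the deposited table and with arrays averaged, and 3 with the array correlation of bright probes; of the 9 called after 2 days, 5 differed between T3R1 and T2R1, and 1, 3, 3, 2 and 3 in the same order. Signal over background limits the probes for microRNAs of rarer cells. The values between single arrays and those of the brightness bins by setting were added after seeing the data.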
